A study of Mus musculus with 48 samples.

Results

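Cathepsins are the proteases of the lysosome and of the compartments that feed it. The genes described here are 10 cathepsins, Ctsa, Ctsb, Ctsc, Ctsd, Ctsf, Ctsh, Ctsk, Ctsl, Ctss and Ctsz, taken by symbol from the count table of the mouse dentate gyrus, in which they were 10 of 55357 genes. All 10 passed the filter for low counts that left 21390 genes for testing, and no library held fewer than 12 reads for any of them.

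RNA was sequenced from 48 libraries of 24 wild-type C57BL/6J mice, aged 6 to 8 weeks in the sample records and slightly older in the methods, after unilateral stereotactic injection of kainate, a glutamate receptor agonist that starts status epilepticus, or of saline. Each mouse gave 1 library from the ipsilateral dorsal dentate gyrus, the epileptogenic zone (EZ), and 1 from the contralateral side, the peri-ictal zone (PIZ). Mice were killed 3 days after injection, when status epilepticus was ending, at 7 days, before recurrent seizures, or at 14 days, when these begin. The 12 groups of region, treatment and day held 4 mice each, 2 male and 2 female, without pooling, and the saline controls share the surgery and the injection. Library totals lay between 17762656 and 25712975 reads. The granule cell markers Prox1, Dsp, C1ql2, Calb1, Rbfox3 and Tdo2 were above 0 in every library. Each value below is CPM, a gene's reads scaled to the size of the library after TMM normalization, and each fold change is the edgeR log2 fold change of kainate over saline with its standard error from the fit (SE, n = 4 mice per group) and Benjamini-Hochberg adjusted p over all tested genes. Genes were called DEG where the adjusted p was under 0.01 and the fold change, up or down, over 1.5. In whole tissue, more cells of a type and more RNA per cell cannot be told apart.

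Cathepsins are made as inactive precursors, are carried to the lysosome largely by mannose 6-phosphate receptors and sortilin, and become active when the propeptide is removed at acid pH. Ctsd is an aspartic endopeptidase, Ctsa is a serine carboxypeptidase that also stabilizes the glycosidases Glb1 and Neu1, and the remaining 8 are cysteine proteases of the papain family. Among the cysteine enzymes, Ctsb, Ctsz, Ctsh and Ctsc trim peptides from one end, with Ctsb also cutting within chains, whereas Ctsl, Ctss, Ctsk and Ctsf are endopeptidases. In brain, microglia are rich in these proteases, Ctss is a largely microglial enzyme that processes the invariant chain Cd74, and loss of Ctsd or Ctsf causes neuronal ceroid lipofuscinosis.

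Promoter sequences are shown because lysosomal genes share an E-box, CACGTG, whose longer form TCACGTGA is the core of the element bound by the lysosomal regulator Tfeb, and because myeloid genes often carry the PU.1 (Spi1) site GAGGAAGT. Of the 10 cathepsins, 8 matched the RefSeq promoter table of build GRCm38.p6, with 9 promoters. Ctsb and Ctsh did not match. Windows of 300 bases, 250 before and 50 after the start of transcription, were searched on both strands. CACGTG was found in 4 cathepsin promoters (Ctsa, Ctsd, Ctsl and Ctsf) and in 7.15% of 32851 promoters of all genes. TCACGTGA, which contains CACGTG, was found in Ctsa and Ctsd and in 0.974% of all promoters. GAGGAAGT was found in Ctss and Ctsc and in 3.2% of all promoters. The interferon-stimulated core GAAANNGAA was found in Ctss (8.56% of all promoters), the STAT element TTCNNNGAA in Ctsc (8.3%), and the AP-1 site TGANTCA in none of the 9 (7.81%). A match in these letters is a description and not evidence of binding. The 4 sequences below run 5′ to 3′ along the gene's own strand and cover 280 bases, of which the last 30 follow the start, with matched letters in capitals. Ctsd (chr7:142387798-142388077, minus strand) carries both E-box forms, Ctsa (chr2:164833523-164833802, plus strand) carries the longer form 2 times next to the start, Ctss (chr3:95526536-95526815, plus strand) carries the interferon-stimulated core and, on the opposite strand, the PU.1 site, and Ctsf (chr19:4854915-4855194, plus strand) carries the short E-box.
Ctsd: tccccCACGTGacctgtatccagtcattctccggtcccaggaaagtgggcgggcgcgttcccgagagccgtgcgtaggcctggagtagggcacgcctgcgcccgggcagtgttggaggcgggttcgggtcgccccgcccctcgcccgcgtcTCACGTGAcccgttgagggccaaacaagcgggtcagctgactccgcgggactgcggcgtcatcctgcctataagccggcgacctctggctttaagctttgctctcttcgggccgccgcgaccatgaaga
Ctsa: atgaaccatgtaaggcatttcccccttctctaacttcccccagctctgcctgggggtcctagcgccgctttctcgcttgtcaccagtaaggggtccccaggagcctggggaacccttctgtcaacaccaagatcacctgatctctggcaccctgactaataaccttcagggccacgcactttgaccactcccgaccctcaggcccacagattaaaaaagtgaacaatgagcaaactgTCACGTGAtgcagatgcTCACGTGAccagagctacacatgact
Ctss: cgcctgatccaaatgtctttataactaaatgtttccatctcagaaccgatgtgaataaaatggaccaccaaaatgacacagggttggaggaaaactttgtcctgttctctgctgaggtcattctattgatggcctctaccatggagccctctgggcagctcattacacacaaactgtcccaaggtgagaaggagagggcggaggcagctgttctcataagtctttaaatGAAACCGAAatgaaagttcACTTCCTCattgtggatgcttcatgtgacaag
Ctsf: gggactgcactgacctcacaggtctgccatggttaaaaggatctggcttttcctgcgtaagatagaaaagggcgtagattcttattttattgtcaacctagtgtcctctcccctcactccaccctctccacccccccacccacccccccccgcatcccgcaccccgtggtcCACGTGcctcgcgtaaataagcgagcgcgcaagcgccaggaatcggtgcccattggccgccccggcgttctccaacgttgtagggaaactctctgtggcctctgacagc
Ctsd and Ctsf both carried CACGTG, and they were the cathepsins with the highest and the lowest fold change in the EZ at day 7, at a log2 fold change of 4.45 and 0.24. Only Ctsd of this pair also carried TCACGTGA, and a link between these letters and the fold changes was not tested.

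Levels in saline-injected mice set the scale on which the cathepsins changed. Per kilobase of transcript, Ctsd was the most abundant, at 205 ± 94.6 CPM per kb in the EZ and 129.7 ± 8.98 in the PIZ (SD, n = 12 mice over the 3 days). Ctsb followed at 98.2 ± 17.5 in the EZ, where the ranges of both overlapped, and at 84.7 ± 5.05 in the PIZ, where they did not. Ctss (22.7 ± 5.92), Ctsa (21.3 ± 2.42) and Ctsl (14.3 ± 3.74) formed the middle of the EZ order, below Ctsb without overlap, and the ranges of these 3 overlapped. Ctsz and Ctsf did not differ beyond their spread in the EZ, at 10.3 ± 3.08 and 10.1 ± 0.488 CPM per kb. Ctsh (5.46 ± 2.33) and Ctsc (4.15 ± 1.03) came next with overlapping ranges. Ctsk, the collagen-degrading cathepsin of osteoclasts, was lowest, apart from all others, at 0.521 ± 0.134. In the PIZ, Ctsa stood above Ctss, and Ctsf above Ctsz. The EZ order of these pairs depended on the day, since at day 14 the saline EZ also had Ctsa (19.8) above Ctss (18.4) and Ctsf (10.2) above Ctsz (8.86). With the union of all exons as gene length, Ctsz stood above Ctsf in the PIZ and, with ranges that did not overlap, in the EZ (9.61 ± 2.87 against 4.85 ± 0.24 CPM per kb).

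In saline-injected mice the EZ showed higher fitted levels than the PIZ for all 10 cathepsins, by a log2 difference of 0.09 to 0.72 with a median of 0.35. Ctsz (log2 difference 0.72, SE 0.25, adjusted p = 0.408) and Ctss (0.71, SE 0.24, adjusted p = 0.394) had the widest differences. None of the 10 passed the threshold by edgeR (4 had an unadjusted p under 0.05) or by DESeq2 (0), against 0.0234% of all genes that were higher in the EZ by edgeR. In a fit of the saline groups alone Ctsh, Ctss and Ctsz passed, against 0.798% of all genes. With mouse as a block none passed, with Ctss at 0.7 (SE 0.19, adjusted p = 0.201), and 0.0561% of all genes did. Within single mice, the EZ library held more than the PIZ library of the same mouse in 12 of 12 saline mice for Ctsa, Ctsc, Ctsd, Ctsh, Ctss and Ctsz, and in 7 to 10 for the other 4. The share of all genes with this order in every saline mouse is not given here, so these counts are a description. For Ctsd, Ctsb, Ctsa, Ctsh and Ctsl every saline EZ library of day 3 lay above all those of days 7 and 14, against 1.97% of all genes, and for the other 5 cathepsins the ranges overlapped. The Ctsd libraries of day 3 held 1004, 592, 495 and 708 CPM in mice 29, 37, 18 and 41, against 328 to 391 at day 7 and 290.2 to 348 at day 14. The 12 microglial markers were also all higher in the saline EZ than PIZ by fitted level (median log2 difference 0.54, range 0.26 to 0.81, none called). In the saline EZ their summed level was 726 to 1303 CPM at day 3 and 616 to 699 at day 7, and that of 7 astrocyte markers was 6034 to 8963 and 4802 to 5513. Their part in these differences was not tested. For Ctsd, Ctsb, Ctsa, Ctsh and Ctsl the EZ comparison at day 3 was thus made against a higher saline level than the later ones. By group mean, Ctss, Ctsz and Ctsc shared this shift, though their ranges overlapped. Mean saline EZ CPM over days 3, 7 and 14 ran 128, 94.2, 81.9 (Ctss), 45.1, 31.1, 30.5 (Ctsz) and 18.9, 14.1, 12.4 (Ctsc). It ran 1.32, 1.18, 1.06 for Ctsk, while Ctsf showed no such shift (47.6, 47, 47.9).

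**Figure D1:**
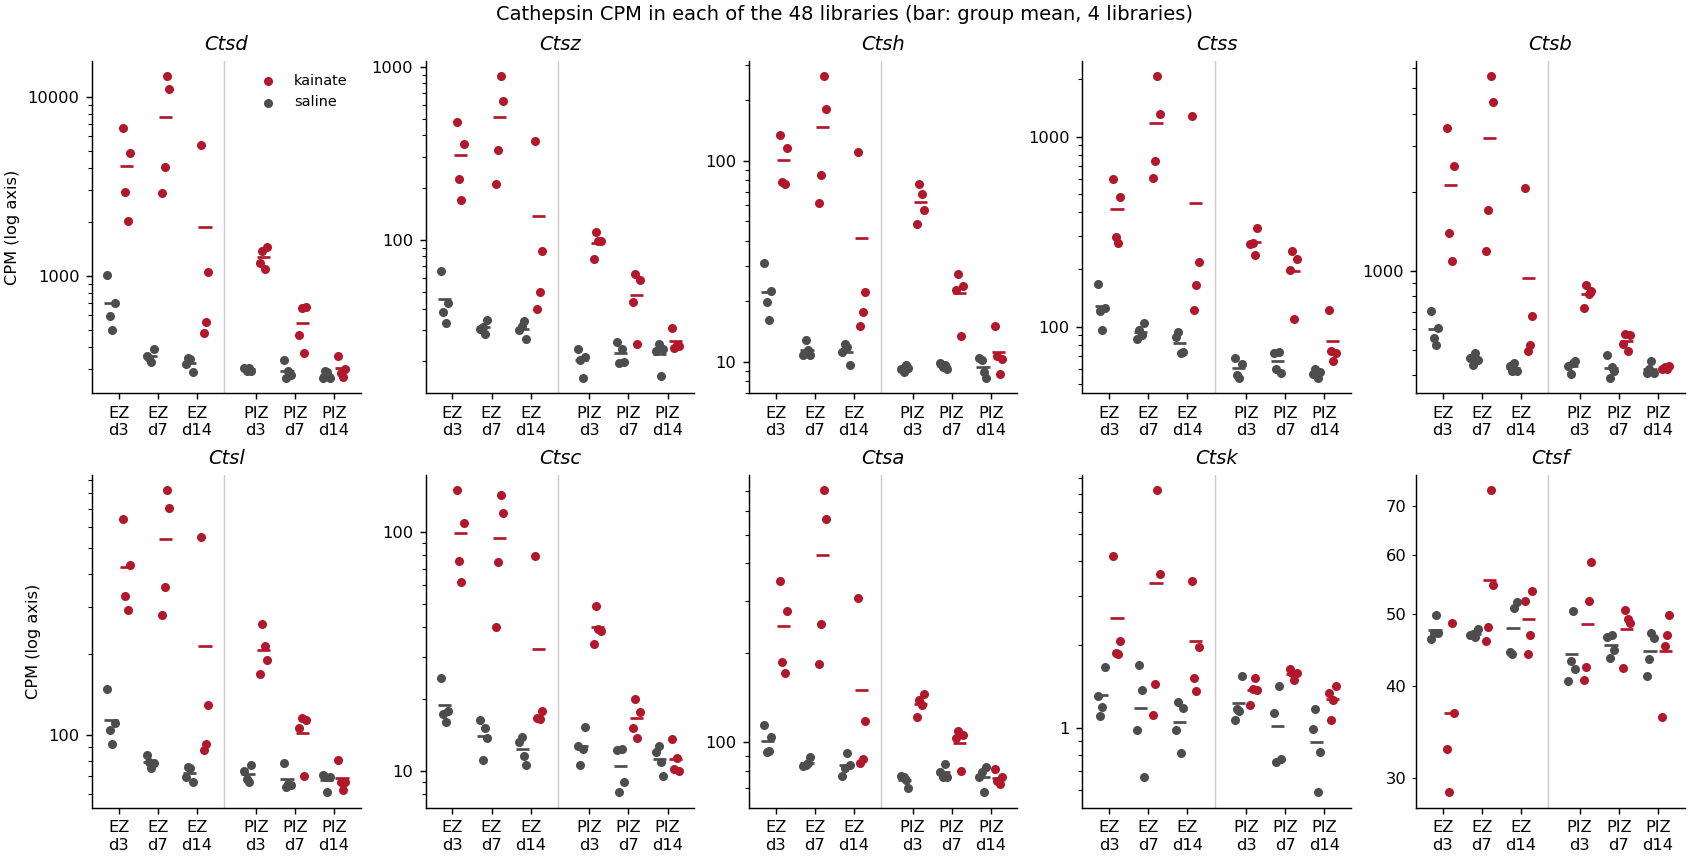
Level of each of the 10 cathepsins (CPM on a log axis) in every library, by region, treatment and day, with 1 point per mouse and a line at each group mean. The kainate EZ libraries of day 7 were spread widely, with Ctsd between 2910.4 and 13015 CPM, and at day 14 a single EZ library, of mouse 27, was the highest of the 4 for every cathepsin but Ctsf.

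At day 3 after kainate, 8 of the 10 cathepsins were upregulated in the EZ (Ctsd, Ctsa, Ctsz, Ctsh, Ctsc, Ctsb, Ctsl and Ctss) and none was downregulated, against 16.1% and 8.61% of all tested genes. The median log2 fold change of the 10 was 1.87 and that of all genes was 0.03. In 9 cathepsins every kainate library lay above every saline library, which held for 23.9% of all genes.

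The aspartic enzyme Ctsd (chromosome 7, 141929646 to 141941775 in GRCm39, minus strand, 9 exons) had 6642, 2934, 2018 and 4843 CPM in kainate mice 38, 30, 44 and 42. All 4 values were above the saline range of 495 to 1004, and the log2 fold change was 2.55 (SE 0.46, adjusted p = 2.95e-05). A gene model on the same strand, Gm49369, overlaps Ctsd and carried 37.9% to 40.1% as many reads in every library, and since a read can fall in both models it is no independent measurement. The serine enzyme Ctsa (chromosome 2, 164674778 to 164682961, plus strand, 16 exons) rose less, with 171 to 348 CPM against 92.9 to 114 (log2 fold change 1.28, SE 0.28, adjusted p = 3.14e-04). Fitted to EZ libraries alone, Ctsa did not pass at this day (adjusted p = 0.012).

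Among the exopeptidases, Ctsz (chromosome 2, 174267304 to 174280832, minus strand, 6 exons), a carboxypeptidase, had the highest fold change of the 10 at this day. It measured 477, 223, 169 and 359 CPM in mice 38, 30, 44 and 42 against 66.2, 38.1, 32.9 and 43.3 in the saline mice, so that no kainate library came near the saline range (log2 fold change 2.76, SE 0.44, adjusted p = 4.66e-06). The other exopeptidases rose by smaller factors, each with all kainate libraries above all saline ones. Ctsc (chromosome 7, 87927092 to 87960096, plus strand, 7 exons), which activates granule serine proteases by removing dipeptides, rose by 2.39 on the log2 scale (SE 0.35, adjusted p = 1.29e-06). The aminopeptidase Ctsh (chromosome 9, 89936205 to 89958148, plus strand, 12 exons) rose by 2.18 (SE 0.39, adjusted p = 2.59e-05), and Ctsb (chromosome 14, 63358384 to 63383372, plus strand, 10 exons) by 1.84 (SE 0.34, adjusted p = 3.83e-05).

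Of the endopeptidases, Ctsl (chromosome 13, 64507151 to 64518704, minus strand, 8 exons) and Ctss (chromosome 3, 95433963 to 95463717, plus strand, 8 exons) were upregulated, by 1.9 (SE 0.35, adjusted p = 3.20e-05) and 1.7 (SE 0.42, adjusted p = 0.00107). Fitted to EZ libraries alone, Ctss did not pass at this day (adjusted p = 0.0177). Ctsk, the upstream neighbor of Ctss on chromosome 3 (95406178 to 95416732, plus strand, 8 exons), had 1.85 to 4.17 CPM against 1.11 to 1.66 and did not pass the threshold (log2 fold change 0.92, SE 0.36, adjusted p = 0.0312). Ctsf (chromosome 19, 4905118 to 4915986, plus strand, 14 exons) was the one cathepsin with a lower fitted level, with 32.9, 28.7, 48.7 and 36.7 CPM in the kainate mice against 46.3 to 49.8. The groups overlapped through mouse 44, and the difference of -0.37 (SE 0.12, adjusted p = 0.0128) did not pass.

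The fitted fold changes of all 10 cathepsins in the EZ were highest at day 7. The kainate level of Ctsc was not, with a mean of 98.7 CPM at day 3 and 94.4 at day 7. Its saline mean was 18.9 and 14.1 CPM at these days. In the EZ at day 7, 9 of the 10 were upregulated (all but Ctsf) and none was downregulated, against 20.6% and 11.9% of all genes, with a median log2 fold change of 2.79 where all genes had 0.01. In 8 of them every kainate library lay above every saline library, as did 23.7% of all genes. The 10 cathepsins together took 1.46% ± 0.943 of all reads in kainate EZ libraries (SD, n = 4, 0.535% to 2.46%) and 0.115% ± 0.0042 in saline ones.

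Ctsd had 2910.4, 4038, 13015 and 10990.5 CPM in kainate mice 23, 26, 21 and 35, against 355, 346, 328 and 391 in saline mice 89, 33, 20 and 34. Every kainate library was far above the saline range, mice 21 and 35 most of all, and the log2 fold change of 4.45 (SE 0.51, adjusted p = 2.39e-08) is 21.8-fold. Ctsz reached 209, 329, 880.4 and 630.4 CPM in the same mice against 28.5 to 34.3, which is 16.4-fold (log2 fold change 4.04, SE 0.47, adjusted p = 2.77e-08). Ctsh had 61.6, 85, 263 and 181 CPM against 10.8 to 12.8, which is 12.9-fold (3.69, SE 0.42, adjusted p = 2.45e-08). The order of the mice, 21 above 35 above 26 above 23, was the same in these 3 genes. Ctss had 602, 747, 2079 and 1315 CPM in mice 23, 26, 21 and 35 against 85.7 to 104, which is 12.6-fold (3.65, SE 0.45, adjusted p = 4.75e-08).

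Ctsb, second to Ctsd in abundance, rose 6.99-fold at day 7, from 438 to 485 CPM in saline mice to 1197 to 5569 in kainate mice (log2 fold change 2.81, SE 0.35, adjusted p = 5.59e-08). Ctsl (log2 fold change 2.77, SE 0.36) and Ctsc (2.75, SE 0.35) rose by similar amounts, and Ctsa by 2.32 (SE 0.29). Ctsk was a DEG (log2 fold change 1.5, SE 0.36, adjusted p = 5.61e-04) although its groups overlapped, with 1.12, 1.44, 7.21 and 3.61 CPM in mice 23, 26, 21 and 35 against 0.671 to 1.69. Only mice 21 and 35 exceeded the saline range of Ctsk, and its call was lost without mouse 21, with only EZ libraries fitted (adjusted p = 0.0112) and with only the compared groups. Ctsf had 46, 48, 73.5 and 54.8 CPM against 46.5 to 47.7, and its log2 fold change of 0.24 (SE 0.12, adjusted p = 0.0953) did not pass.

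At day 14 the number of upregulated cathepsins in the EZ was 6 (Ctsd, Ctss, Ctsz, Ctsh, Ctsl and Ctsc), against 2.32% of all genes, but these calls depended on mouse 27. Ctsd had 5369 CPM in mouse 27 and 476, 549.6 and 1053 in mice 36, 14 and 40, against 290.2 to 348 in saline mice (log2 fold change 2.51, SE 0.46, adjusted p = 0.00105). Ctss had 1282 CPM in mouse 27 and 123, 165 and 218 in the other 3, against 72.8 to 93.2 (2.45, SE 0.43, adjusted p = 8.31e-04). For both genes all 4 kainate libraries still exceeded all saline libraries.

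Without mouse 27 no cathepsin was called at day 14, against 0.0323% of all genes, and Ctsd had a log2 fold change of 1.09 (adjusted p = 0.357) and Ctss of 1.04 (adjusted p = 0.205). No cathepsin was called either without saline mouse 31 (0.138% of all genes) or when only EZ libraries were fitted (Ctss adjusted p = 0.0523), where 0.00482% of all genes were upregulated, and 2 were called without saline mouse 24 (0.493% of all genes), 28 (0.626%) or 39 (0.267%). In 8 cathepsins (all but Ctsa and Ctsf) every kainate library lay above every saline library at day 14, both with mouse 27 (4.58% of all genes) and without it (5.74%). The remaining 3 kainate mice had, for example, 39.5, 49.8 and 85.8 CPM of Ctsz in mice 36, 14 and 40 against 26.5 to 33.9 in saline mice.

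**Figure D2:**
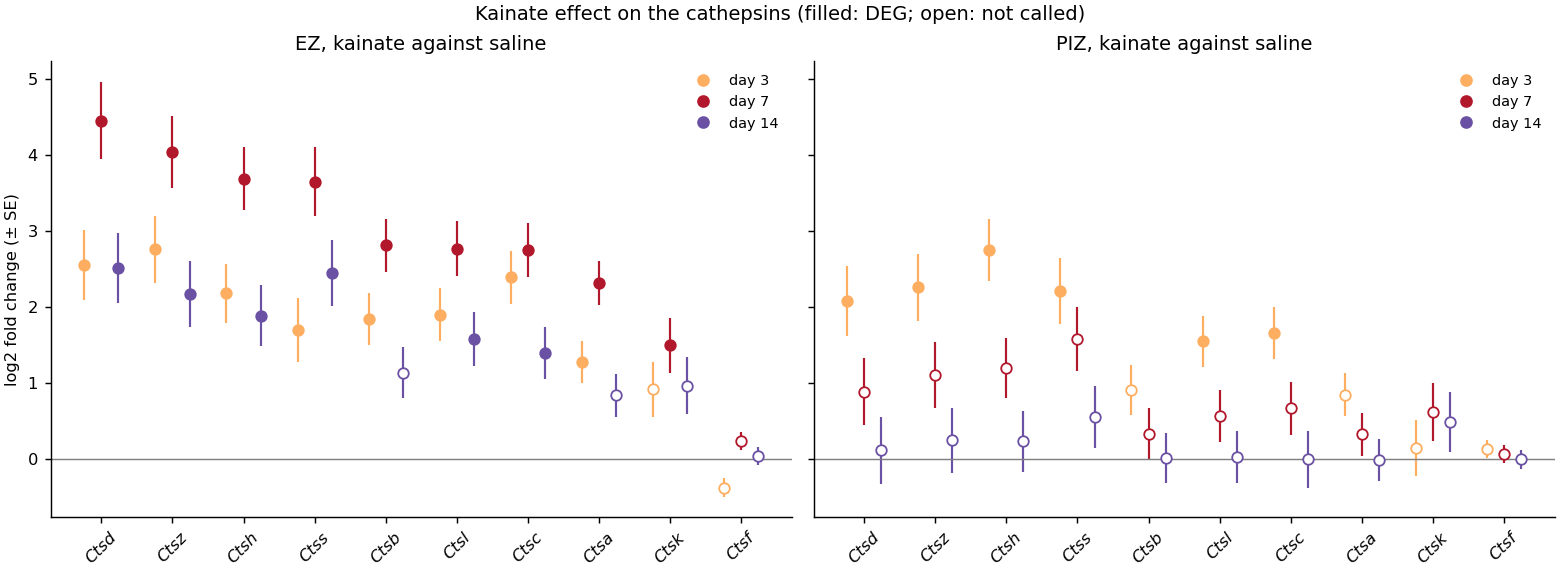
Log2 fold change of kainate over saline for each of the 10 cathepsins in the EZ and the PIZ at days 3, 7 and 14, with bars of 1 SE from the edgeR fit and filled points for DEG. In the EZ the fold change of each gene was highest at day 7, with Ctsd at 4.45. In the PIZ the highest value was that of Ctsh at day 3, at 2.75, and at day 14 the highest was Ctss at 0.56.

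In the PIZ, 6 of the 10 cathepsins were upregulated at day 3 (Ctsh, Ctsz, Ctss, Ctsd, Ctsc and Ctsl), against 7.12% of all genes, with a median log2 fold change of 1.6 for the 10 and 0.02 for all genes. In 8 cathepsins every kainate library lay above every saline one, as did 17.1% of all genes. Ctsh had the highest fold change, with 48.2, 76.4, 67.9 and 56.9 CPM in mice 38, 30, 44 and 42 against 8.89 to 9.65 (log2 fold change 2.75, SE 0.41, adjusted p = 8.27e-06). The saline libraries of Ctsh lay close together, and every kainate library was far above them. Ctsd had 1176, 1369, 1084 and 1452 CPM against 293 to 307 (2.08, SE 0.46, adjusted p = 9.68e-04), and Ctss had 271, 274, 239 and 331 against 53.4 to 68.6 (2.21, SE 0.43, adjusted p = 2.61e-04). The kainate values of Ctsd and Ctss spread less between mice than in the EZ at day 3, with an SD of log2 CPM of 0.19 against 0.76 for Ctsd and 0.19 against 0.54 for Ctss. For Ctsh the spread was closer in both regions, at 0.29 in the PIZ and 0.4 in the EZ.

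Ctsb and Ctsa also lay above the saline range in every PIZ library at day 3, at 723 to 885 against 404 to 452 CPM and at 122 to 145 against 70.4 to 76.9. The log2 fold change of Ctsb was 0.91 (SE 0.33, adjusted p = 0.0432) and that of Ctsa 0.85 (SE 0.28, adjusted p = 0.0238), which did not pass when all 48 libraries shared 1 estimate of spread. Both passed when only PIZ libraries were fitted, a fit in which 8 cathepsins and 9.8% of all genes were upregulated. Ctsk (0.15, adjusted p = 0.805) and Ctsf (0.14, adjusted p = 0.462) did not pass.

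At day 7 in the PIZ no cathepsin passed the threshold by edgeR (3 had an unadjusted p under 0.05), DESeq2 called 1, and 0.15% of all genes were upregulated by edgeR and 0.772% by DESeq2. Ctss had 198, 249.8, 109.9 and 228 CPM in mice 23, 26, 21 and 35 against 56.8 to 73.4, with all kainate libraries above the saline range and mouse 21 lowest (log2 fold change 1.58, SE 0.42, adjusted p = 0.0445). Fitted to PIZ libraries alone, where the spread was estimated without the EZ, 5 cathepsins were upregulated, against 2.56% of all genes. These were Ctss (1.59, SE 0.2, adjusted p = 5.41e-05), Ctsh (1.2, SE 0.18, adjusted p = 2.48e-04), Ctsd (0.89, SE 0.14, adjusted p = 3.81e-04), Ctsz (1.11, SE 0.21, adjusted p = 0.00136) and Ctsc (0.67, SE 0.16, adjusted p = 0.00782). The fold changes barely differed between both fits, and the standard errors did. In 6 cathepsins (Ctsb, Ctsc, Ctsd, Ctsh, Ctsk and Ctss) all kainate libraries exceeded all saline libraries, as in 7.63% of all genes.

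By day 14 the PIZ values of 9 of the 10 cathepsins overlapped those of saline mice. None of the 10 passed by edgeR (0 with an unadjusted p under 0.05) or DESeq2 (0), against 0.00935% of all genes upregulated by edgeR, and the median log2 fold change was 0.07. Ctss, at 65.9 to 123 CPM against 53.6 to 60, was the one cathepsin whose kainate libraries all exceeded the saline ones, as did 3.7% of all genes.

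Whether the kainate effect differed between the regions was tested directly. At day 7 it was greater in the EZ for 8 of the 10 cathepsins (all but Ctsk and Ctsf), against 7.0% of all genes. The difference of log2 fold changes was 3.56 for Ctsd (SE 0.64, adjusted p = 0.00159), 2.93 for Ctsz (SE 0.6, adjusted p = 0.00203) and 2.47 for Ctsb (SE 0.47, adjusted p = 0.00179). Ctss, the most raised cathepsin of the PIZ at that day, differed by 2.07 (SE 0.59, adjusted p = 0.00961). With mouse as a block, since both libraries of a pair came from the same mouse, 8 were called, against 6.95% of all genes, with Ctsd at 3.31 (SE 0.57, adjusted p = 0.00139). Without mouse 21 none was called, nor was any other gene in that direction (0.0% of all genes), with Ctsd at 3.05 (adjusted p = 0.022) and Ctsb at 2.03 (adjusted p = 0.0252). The count was 3 without mouse 89 (0.773% of all genes) or 35 (0.671%) and 2 without mouse 20 (0.538%).

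At day 3 no cathepsin differed between the regions by edgeR (1 at an unadjusted p under 0.05) or DESeq2 (0), against 0.0374% of all genes with the greater effect in the EZ. The fitted difference was 0.93 for Ctsb (SE 0.47, adjusted p = 0.289) and in the other direction for Ctsh (-0.57, SE 0.54, adjusted p = 0.6) and Ctss (-0.51, SE 0.58, adjusted p = 0.663). Ctsf, the 1 with an unadjusted p under 0.05, also went in that direction (-0.51, SE 0.18, adjusted p = 0.128, and 0.0433 with mouse as a block). At day 14 none passed by edgeR (8 at an unadjusted p under 0.05) or DESeq2 (0), with Ctsd at 2.39 (SE 0.63, adjusted p = 0.506), and 0.0% of all genes passed in that direction. That value was 1.59 with mouse as a block (SE 0.57, adjusted p = 0.623) and 1.05 without mouse 27.

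Tests between days asked whether the effect itself moved. In the EZ from day 3 to day 7 the log2 fold change rose by 1.96 for Ctss (SE 0.58, adjusted p = 0.114) and by 1.89 for Ctsd (SE 0.63, adjusted p = 0.164), whereas Ctsc differed by 0.36 (SE 0.47, adjusted p = 0.824). None passed by edgeR (7 at an unadjusted p under 0.05) or DESeq2 (0), and 0.112% of all genes did. From day 7 to day 14 all 10 fitted values were lower, between -1.93 for Ctsd (SE 0.63, adjusted p = 0.0353) and -0.2 for Ctsf (SE 0.18, adjusted p = 0.438). None passed by edgeR (8 at an unadjusted p under 0.05), DESeq2 called 2, and 0.15% of all genes had a lower effect by edgeR and 3.32% by DESeq2. By edgeR 8 were called without mouse 27 (13.1% of all genes), 5 without mouse 23 (6.8%) and 2 without mouse 26 (2.79%). In the PIZ from day 3 to day 7 none passed by edgeR (3 at an unadjusted p under 0.05) or DESeq2 (0), against 0.00935% of all genes with a lower effect, with Ctsh at -1.55 (SE 0.56, adjusted p = 0.295). Fitted to PIZ libraries alone, 4 passed, against 0.925% of all genes.

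**Figure D3:**
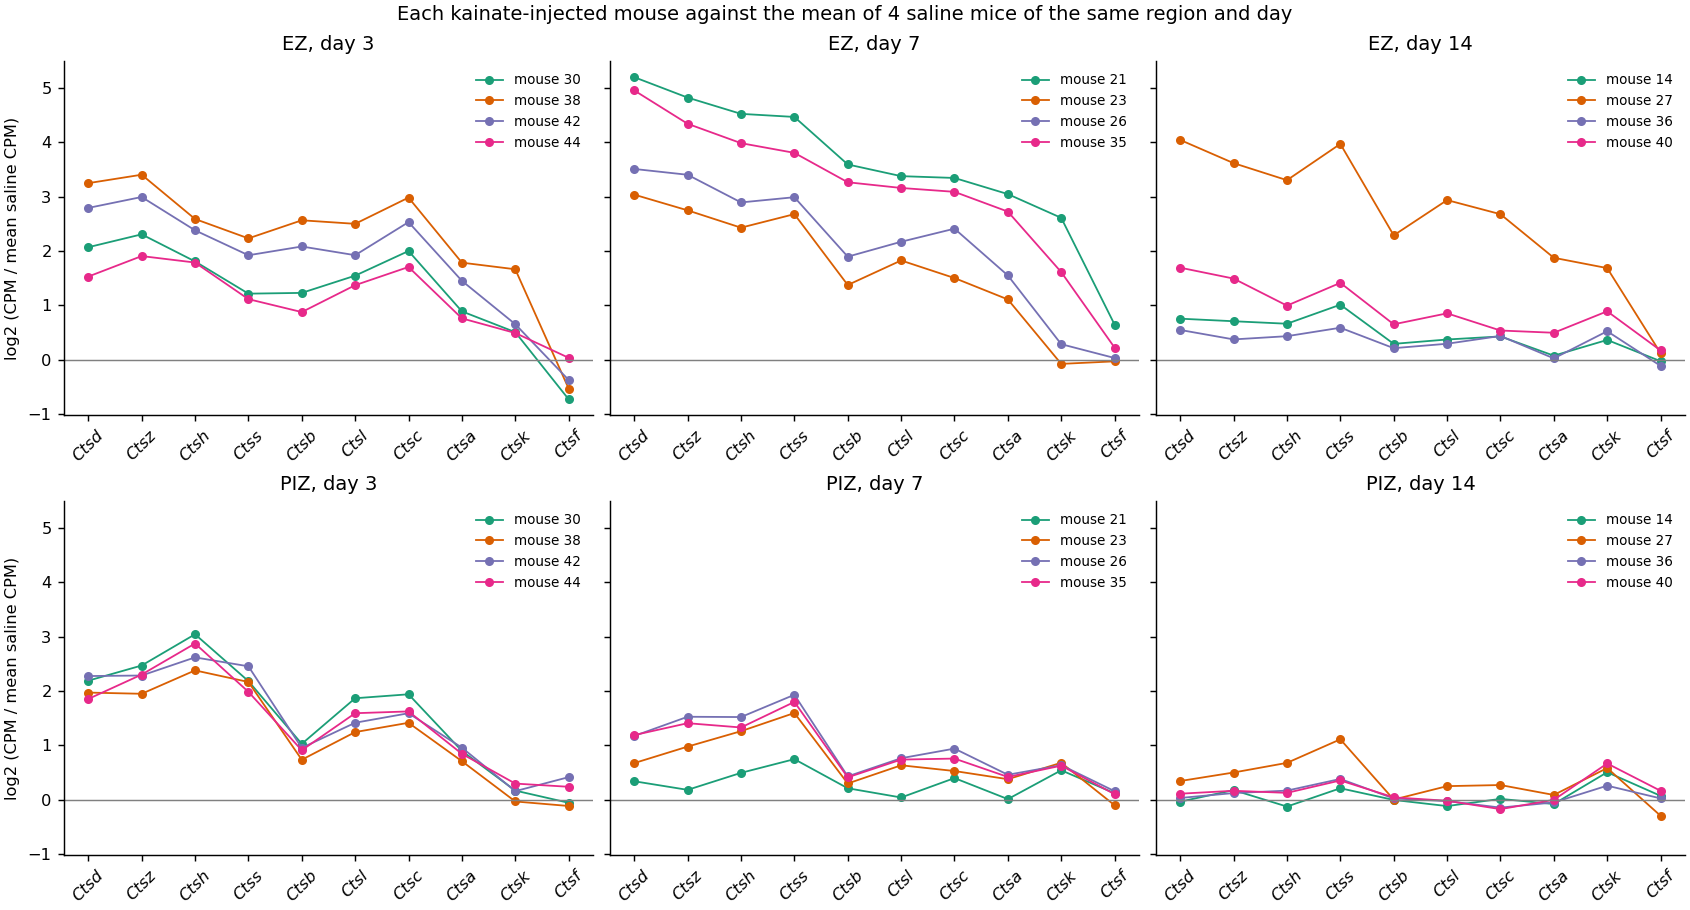
Log2 ratio of CPM in each kainate mouse to the mean CPM of the 4 saline mice of the same region and day, for the 10 cathepsins along the x axis, with 1 line per mouse and a grey line at no difference. At day 7 the line of mouse 21 was highest in the EZ in 10 of 10 cathepsins and lowest in the PIZ in 9 of 10.

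In the EZ, kainate mice that were high or low in one cathepsin tended to be so in most. In the EZ at day 7 mouse 21 was the highest of the 4 kainate mice in 10 of 10 cathepsins and mouse 23 the lowest in 10 of 10, whereas in the PIZ mouse 21 was the lowest in 9 of 10. At day 3 mouse 38 was the highest in the EZ in 9 of 10 cathepsins and the lowest in the PIZ in 8 of 10, and mouse 44 was the lowest in the EZ in 9 of 10. At day 14 mouse 27 was the highest in the EZ in 9 of 10 and in the PIZ in 7 of 10. The 10 genes of a library are not independent, and each such statement rests on 1 mouse.

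The proportions among cathepsins shifted along with their level. Of all cathepsin reads in the EZ at day 7, Ctsd made up 54.6% ± 2.45 in kainate mice (SD, n = 4) and 28.1% to 31.8% in saline mice. Ctsb, which led the cathepsins by reads in the saline EZ of that day at 39.2% ± 1.85, made up 22.8% ± 0.908 after kainate. Ctsz went from 2.64% ± 0.156 to 3.79% ± 0.404 and Ctsf from 3.98% ± 0.0906 to 0.515% ± 0.262. For these 4 genes the kainate and saline ranges did not overlap. The same held for Ctsa (2.97% to 3.33% in kainate and 7.03% to 7.32% in saline mice), Ctsl (3.49% to 5.07% and 6.42% to 7.11%) and Ctsk (0.0189% to 0.0306% and 0.0546% to 0.148%). The shares of Ctsh (1.07% ± 0.0809 and 0.971% ± 0.103) and Ctss (9.1% ± 1.68 and 7.98% ± 0.582) lay within or near each other's spread.

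Markers of other cells moved with the cathepsins. All 12 microglial markers (among them Csf1r, Cx3cr1, P2ry12, Tmem119, C1qa and Trem2) were above 0 in every library. In the EZ 11 of 12 were upregulated at day 3 (16.1% of all genes), 12 of 12 at day 7 (20.6%) and 10 of 12 at day 14 (2.32%). In the PIZ at day 3 it was 12 of 12 (7.12% of all genes). Without mouse 27, at day 14 in the EZ, 0.0323% of all genes and 0 of these markers were upregulated. Their summed level in the EZ was 2351 to 4357 CPM in kainate and 726 to 1303 in saline mice at day 3, 2833 to 11327 and 616 to 699 at day 7, and 712 to 5387 and 553 to 596 at day 14, with mouse 27 at 5387. In the PIZ it was 1529 to 1909 in kainate and 401 to 556 in saline mice at day 3. Mice 21 and 27, highest in cathepsins, were also highest in this sum in the EZ at days 7 and 14.

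**Figure D4:**
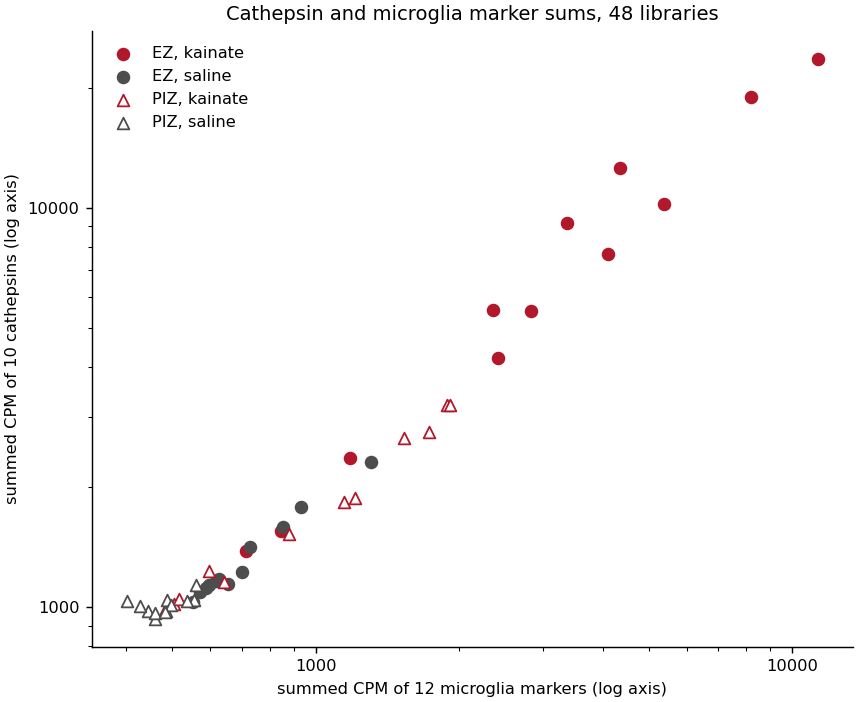
Summed CPM of the 10 cathepsins against summed CPM of the 12 microglial markers in every library, on log axes, by region and treatment. Both sums were highest in the EZ library of mouse 21 at day 7, at 23558 and 11327 CPM.

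Divided by the microglial sum, a description chosen after the values were seen, the summed cathepsins stood at 1.86 to 2.32 in kainate EZ libraries of day 7 and 1.76 to 1.89 in saline ones. The ratio was 1.74 to 2.88 against 1.77 to 1.95 in the EZ at day 3, and 1.59 to 1.74 against 1.88 to 2.59 in the PIZ at day 3. Single members behaved differently from the sum. Ctsd per microglial marker read was 0.984 to 1.34 in kainate and 0.53 to 0.566 in saline EZ libraries at day 7, without overlap, whereas in the PIZ at day 3 it was 0.626 to 0.769 against 0.55 to 0.765. Ctsb went the other way in the EZ at day 7, at 0.418 to 0.542 against 0.656 to 0.787. The part of microglial number in the cathepsin levels was not tested.

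Of 10 markers of infiltrating myeloid cells, 5 were upregulated in the EZ at day 3, 6 at day 7, 1 at day 14 (0 without mouse 27) and 1 in the PIZ at day 3, among them Ccr2 (log2 fold change 3.82 in the EZ at day 3) and Lyz2 (5.9 in the EZ at day 7). Their summed level was 127 to 898 CPM in kainate and 28.8 to 55.5 in saline EZ libraries at day 3, 151 to 1586 against 24.5 to 33.3 at day 7, and 31.4 to 518 against 20.2 to 31.2 at day 14. Lyz2 weighed most in the highest sums, with up to 38147 reads in a library, against at most 1301 for any other of these markers (Ms4a7). S100a8, S100a9 and Plac8 were at 0 in some libraries. Of all genes, 16.1%, 20.6% and 2.32% were upregulated in the EZ at days 3, 7 and 14 and 7.12% in the PIZ at day 3, so that 1 of 10 lay near the share of all genes in the PIZ. The 5 T cell markers summed to 5.37 CPM at most. Of the 2 that were tested, Cd4 was upregulated in the EZ at day 7 (log2 fold change 4.01, SE 0.72, adjusted p = 1.40e-05), and Cd3e, Cd3g, Cd8a and Cd4 were at 0 in some libraries. The 6 granule cell markers summed to 873, 799, 179 and 278 CPM in kainate mice 23, 26, 21 and 35 in the EZ at day 7, against 767 to 1089 in saline mice, so that the mice with the most cathepsin had the least. At day 14 mouse 27 had 440.4 CPM and the other 3 kainate mice 687 to 1088. The 6 fibroblast and meningeal markers summed to 61 to 504 CPM in kainate and 43.2 to 56.3 in saline mice in the EZ at day 7, where all 6 were upregulated. The 6 neuronal markers, 5 of them downregulated, summed to 1301 to 3315 CPM in kainate and 4467 to 5719 in saline mice in the EZ at day 7. Of all genes, 11.9% were downregulated in that comparison. The 7 astrocyte markers, 5 of them upregulated, summed to 11441 to 13166 against 4802 to 5513. In the PIZ at day 3 these astrocyte markers summed to 9237 to 9994 CPM in kainate and 4177 to 5629 in saline mice, and 4 of 7 were upregulated. In the EZ at day 7, 2 of 6 oligodendrocyte markers and 3 of 5 endothelial markers were upregulated. The part of these cells in the cathepsin levels was not tested either.

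The wider cathepsin system was described by fixed lists of genes. Their counts stand beside the shares of all genes, of which 16.1% were upregulated and 8.61% downregulated in the EZ at day 3, 20.6% and 11.9% at day 7, and 7.12% upregulated in the PIZ at day 3. In the EZ at day 14, 2.32% of all genes were upregulated, and 0.0323% without mouse 27. Of 13 other cathepsins, 3 were tested and the rest had too few reads. Ctse, an aspartic relative of Ctsd, was upregulated in the EZ at day 3 (log2 fold change 3.58, SE 0.82, adjusted p = 5.10e-04). Ctso was upregulated at day 7 (1.06, SE 0.13, adjusted p = 5.48e-08). In the EZ 2 of the 3 were called at day 3, all 3 at day 7, and 2 at day 14 (0 without mouse 27), whereas none was called at day 3 in the PIZ.

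Of 12 listed inhibitors of cathepsins, 9 were tested, of which 6 were upregulated in the EZ at day 3, 8 at day 7 and 5 at day 14 (1 without mouse 27), and 3 in the PIZ at day 3, with none downregulated. Cst7, an inhibitor of Ctsc and related enzymes that is delivered to lysosomes, rose by 6.59 on the log2 scale in the EZ at day 7 (SE 0.71, adjusted p = 1.66e-08). Cstb, a cytosolic inhibitor whose loss causes progressive myoclonus epilepsy, rose by 1.41 in the EZ at day 3 (SE 0.2, adjusted p = 1.21e-06). The median log2 fold change of the 9 was 2.78 in the EZ at day 7.

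Other lysosomal hydrolases, listed together with a few luminal proteins that are not enzymes, had lower median log2 fold changes than the cathepsins, with 20 of 32 upregulated and 1 downregulated in the EZ at day 3 (median log2 fold change 0.82), 24 and 1 at day 7 (1.38), and 5 and 0 in the PIZ at day 3 (0.45). Lgmn, the asparaginyl endopeptidase that cuts single-chain cathepsins, rose by 2.23 in the EZ at day 3 (SE 0.35, adjusted p = 3.24e-06), and the sterol carrier Npc2 by 2.77 at day 7 (SE 0.32, adjusted p = 2.71e-08). Ids, a sulfatase, was the downregulated member at both days (-0.75, SE 0.21, adjusted p = 0.00365, and -1.09, SE 0.21, adjusted p = 4.56e-05). Genes of the lysosomal membrane and of acidification had lower medians again, with 6 of 18 upregulated at day 3 (median 0.15) and 8 upregulated and 1 downregulated at day 7 (0.21) in the EZ. Cd68, a macrophage lysosomal membrane protein, rose by 4.51 at day 7 (SE 0.53, adjusted p = 3.27e-08), whereas the proton pump subunit Atp6v0a1 was downregulated (-0.59, SE 0.13, adjusted p = 1.29e-04).

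**Figure D5:**
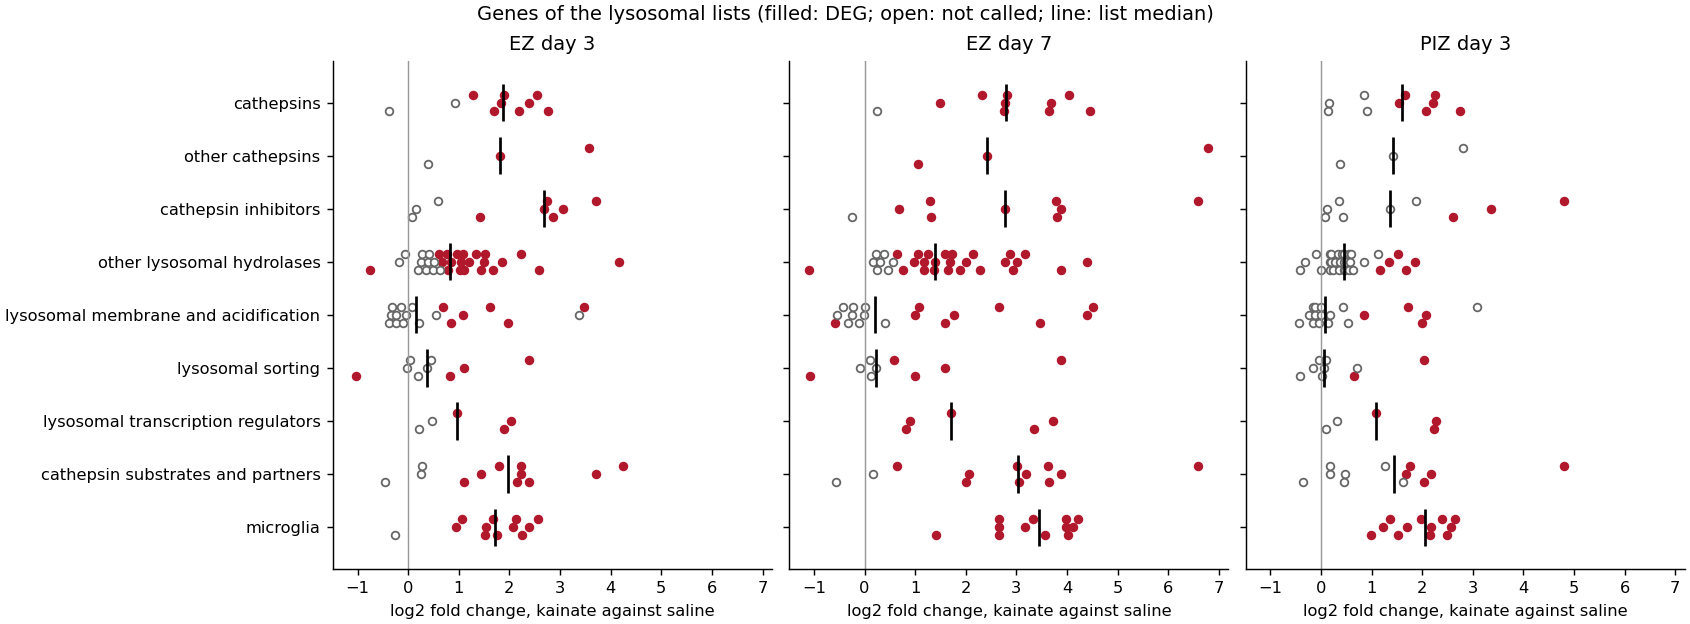
Log2 fold change of kainate over saline for every tested gene of the cathepsins, the related lysosomal lists and the microglial markers, in the EZ at days 3 and 7 and the PIZ at day 3, with filled points for DEG, a black line at each list's median and a grey line at 0. In the EZ at day 7 the 10 cathepsins had a median of 2.79, the other hydrolases 1.38 and the membrane and acidification genes 0.21.

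Of 9 sorting genes, 3 were upregulated and 1 downregulated in the EZ at day 3, and 4 and 1 at day 7, so that the share downregulated, 1 of 9, was near that of all genes. Grn, the progranulin gene, rose by 3.89 at day 7 (SE 0.41, adjusted p = 1.61e-08), whereas Sort1, which encodes sortilin, a neuronal receptor for progranulin, fell by 1.04 on the log2 scale at day 3 (adjusted p = 1.61e-06) and fell by 1.08 at day 7 (adjusted p = 2.93e-07). Of 5 transcription regulators (Tfeb, Tfe3, Mitf, Spi1 and Irf8), 3 were upregulated in the EZ at day 3 and all 5 at day 7, led by Spi1 at day 3 (2.04, SE 0.4, adjusted p = 7.38e-05) and Irf8 at day 7 (3.72, SE 0.43, adjusted p = 2.77e-08). Of 12 tested substrates and partners, 9 were upregulated at day 3 and 10 at day 7, and none was downregulated. Lgmn, Grn, Cst7, Neu1, Glb1 and Psap appear in this list and in another, as does Col1a1 among substrates and fibroblast markers. In the PIZ at days 7 and 14 no gene of any of these lists was called by edgeR in the fit of all libraries, where 0.15% and 0.00935% of all genes were upregulated.

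The genes whose profile over the 48 libraries lay closest to each cathepsin were found by the mean absolute difference of centered log2 CPM. Ctsz lay closest to Fcer1g (0.111) and Itgb2 (0.136), both immune receptor chains. Ctss lay closest to Irf8 (0.171) and Trem2 (0.184), Ctsh to Ncf1 (0.139) and Olfml3 (0.159), and Ctsl to Anxa3 (0.112) and Cd63 (0.114). Ctsd, aside from the overlapping Gm49369 (0.013), lay closest to Fcer1g (0.141), Ctsb to Rnase4 and Ftl1 (both 0.129), Ctsc to Lgmn (0.134) and Msn (0.161), and Ctsa to Axl (0.106) and Fmnl3 (0.121). Ctsf and Ctsk had other neighbors, Rnf5 (0.103) and Pcx (0.106) for Ctsf, and Tmem98 (0.251) and Cers2 (0.252) for Ctsk, the least abundant cathepsin. The 48 points share mice, groups and depth, and the distances are descriptions. Among the cathepsins themselves the closest pair was Ctsa and Ctsb (0.16), followed by Ctsc and Ctsl (0.169) and Ctsd and Ctsz (0.184).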

How the data were processed

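RNA from both dorsal dentate gyri of 24 mice was measured in 48 libraries. Per the labels and the methods, libraries were poly(A)-selected and strand-specific, and the authors trimmed reads with fastp 0.20.1, aligned them to GRCm39 with HISAT2 2.2.1 and assigned them to genes of Gencode M28 by featureCounts (Subread 1.6.4). The deposited counts are whole reads per gene and library, without normalization. Their settings allowed a read to count for several overlapping genes on a strand, with preference for the largest overlap, and counted multi-mapping reads at their primary alignment. No columns of the authors' own comparisons were used.

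Symbols and positions came from Gencode M39 on GRCm39, which matched 98.90% of 55357 identifiers. Starting from the counts, R 4.3.3 and edgeR 4.0.16 were used, with filterByExpr over 12 groups (21390 genes kept), TMM scaling (factors 0.934 to 1.097) and a quasi-likelihood fit of 12 group means. P-values were adjusted by Benjamini-Hochberg over the tested genes, and DEG needed a value under 0.01 and more than a 1.5-fold change. A standard error is the absolute log2 fold change divided by the square root of F. Log2 CPM values used a prior count of 2. On simulated counts of the EZ at day 3 (21390 genes), 96 of 100 genes changed 4-fold and 74 of 100 changed 2-fold were called, with 0 false calls. This check was of that comparison alone. In the data, Ctsd had an SD of log2 CPM of 1.6 in the kainate EZ (day 14) but 0.04 in the saline PIZ (day 3). Calling under such unequal spread was not tested.

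Library totals were 17762656 to 25712975 reads (median 22108562), and the lowest count of a cathepsin was 12 in Ctsk, the least abundant. Alternatives were DESeq2 1.42.0, scaling by RLE or by library size alone, dropping the low-count filter or raising it to 10 counts, a looser adjusted p of 0.05, fits of 1 region or of the compared groups, blocking by mouse, and leaving each mouse out. The 2 libraries of a mouse are paired by animal, and their residuals correlated between -0.054 and 0.376 (median 0.208), above 0.1 in 20 of 24 mice. The members, lists and tests were chosen with earlier results of these data known. Genes named beyond the 10 cathepsins are the leading genes of each list by p or abundance and the 2 closest profiles of each cathepsin. Promoter sequences are from RefSeq on GRCm38.p6, a different build from that of the counts. Not every gene of the lists is reported by name here. Seizure records and histology were not analyzed here.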

Additional observations from a re-analysis of the deposited data

Results flagged for a closer look

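In 13 of 120 sets of 4 libraries (10 cathepsins in 12 groups), 1 library stood apart from the other 3 by Dixon's test at the 95% level. Chance flags about 1 in 20 sets. The EZ library of mouse 27 at day 14 accounts for 8 of them, as the highest of its group. It had 307 CPM of Ctsa (others 85.1 to 118), 2087 of Ctsb (495 to 671), 78.9 of Ctsc (16.6 to 17.9), 5369 of Ctsd (476 to 1053), 110.4 of Ctsh (15.1 to 22.3), 549.7 of Ctsl (88 to 129.7), 1282 of Ctss (123 to 218) and 374 of Ctsz (39.5 to 85.8). The PIZ library of the same mouse was also highest for Ctss, at 123 CPM (others 65.9 to 74.2), and for Ctsz, at 30.8 (23.7 to 24.6). The other 3 were Ctsk in kainate mouse 38 in the EZ at day 3, at 4.17 CPM (1.85 to 2.07), and Ctsl in the PIZ of saline mouse 89 at day 7, at 78.6 (64.1 to 65.4), and of saline mouse 39 at day 14, at 61 (69.4 to 71.1).

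The kainate effect differed between the regions at day 7 for 8 cathepsins by the edgeR test of that difference, with 4 mice per group. The log2 fold change in the EZ exceeded that in the PIZ by 1.99 for Ctsa, 2.93 for Ctsz, 2.07 for Ctss, 2.08 for Ctsc, 3.56 for Ctsd, 2.49 for Ctsh, 2.2 for Ctsl and 2.47 for Ctsb. No gene of the whole table was called in this direction without mouse 21, where the cathepsin values were 1.55, 2.32, 1.46, 1.73, 3.05, 1.88, 1.79 and 2.03 in the same order. The EZ library of mouse 21 was the highest of its group in 10 of 10 cathepsins and its PIZ library the lowest in 9 of 10.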

How the results depend on the processing

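The number of upregulated cathepsins in the EZ at days 3 and 7 and in the PIZ at day 3 stayed within 1.5 times the reported count under every alternative tried. In the EZ at day 14 it was 6, and 0 in a fit of only EZ libraries, 0 in a fit of only the compared groups and 0 to 7 when each mouse was left out. In the PIZ at day 7 it was 0, and 1 at an adjusted p under 0.05, 1 by DESeq2, 2 with only the compared groups and 5 with only PIZ libraries. For the difference between regions at day 7 it was 8, and 0 to 8 when each mouse was left out. Mouse as a block left it at 8, and in the other comparisons between regions, the only ones it was run for, it changed no call of a cathepsin. For the change of the EZ effect from day 7 to day 14 it was 0, and 2 by DESeq2, 5 at an adjusted p under 0.05 and 0 to 8 when each mouse was left out. For the change of the PIZ effect from day 3 to day 7 it was 0, and 2 with only the compared groups and 4 with only PIZ libraries. For saline EZ against saline PIZ it was 0, and 3 with only the saline groups. The cause of these changes was not tested, but fits of fewer libraries estimate the spread from those alone. Over all comparisons and alternatives, single cathepsins lost the threshold 70 times and gained it 49 times, and 32 values that were not called, and lay within their standard error in at least 1 of both fits, differed in sign. These losses include Ctsa and Ctss in the EZ at day 3 and Ctsk in the EZ at day 7 with only EZ libraries. No called value changed sign. With the union of exons as length, 12 levels per kilobase moved by more than 1 SD. The lowest count of a cathepsin was 12, in Ctsk, and the effect of depth on the calls was not tested.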
